A study of Caenorhabditis elegans with 6 samples.

Results

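The genes of translation initiation and elongation factors were examined in RNA-seq counts of whole L4 larvae of Caenorhabditis elegans. They were chosen by name alone: of the 46911 genes in each count file, 40 had a WormBase symbol beginning with eif, eef, ife, iff, ifg or efk followed by a number. Of the 6 libraries, 3 came from strain VC295, with the allele unc-30(ok613) on chromosome IV, and 3 from Wild type (N2). A homeodomain regulator of GABAergic motor neuron identity is encoded by unc-30. The genotype field names unc-30(ok613) for all 6 libraries, so strain and title defined the groups. All animals grew at one temperature on Escherichia coli OP50, and the labels name no treatment other than harvest. Whether the libraries of a group stem from separate cultures is not labelled, and p-values therefore reflect only library-to-library spread, which may be technical.

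Initiation factors bring the initiator tRNA and the small ribosomal subunit to an mRNA. eIF2 carries that tRNA, eIF2B recharges eIF2 with GTP, eIF3 is the large scaffold on the small subunit, and eIF4E with eIF4G binds the 5′ cap. Elongation factors then deliver aminoacyl-tRNAs (eEF1) and move the ribosome by a codon (eEF2). In C. elegans several of these proteins have isoforms that differ between germline and soma. IFE-1, IFE-3, IFE-5 and IFF-1 are known from the germline, and IFE-2, IFE-4 and IFF-2 from somatic tissues.

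The libraries held between 20188810 and 24498576 counts for the mutant and between 17318736 and 26377332 for wild type. Ribosomal RNA genes took 7.65% to 12.7% of counts in mutants and 0.394% to 8.20% in wild type. Counts of unc-30 itself were 20, 24 and 17 in the 3 mutant libraries and 23, 26 and 17 in wild type. The extent of the deletion is not labelled, which leaves the labels unchecked by these counts. With 1 mutant strain, the allele cannot be told apart from other differences between the strains. Every listed marker of germline, sperm, oocyte, muscle, intestine, epidermis and neurons that had a match had counts in all 6 libraries.

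Levels are CPM, that is counts relative to library totals corrected by trimmed mean of M-values (TMM) factors. These factors lay between 0.654 and 0.760 for mutant libraries and between 1.38 and 1.49 for wild-type ones. Using library totals alone moved the median log2 fold change of all tested genes by -1.01. Each rise or fall is therefore relative to the TMM reference, and the result with total counts is given beside each group of genes.

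Most translation factor genes were called higher in the unc-30(ok613) strain on the TMM scale, the elongation factors among them, while eIF4G, eif-2D and part of eIF2B were called lower. Of the 40 genes, all passed the filter on low counts, 26 rose, 4 fell and 10 did not pass the test (edgeR quasi-likelihood test, adjusted p under 0.05), whereas scaling by total counts gave 4 rises and 13 falls. Over all 14506 tested genes, 17.1% were called higher and 20.9% lower in the mutant, and 38% in either direction; total counts called 3.43% higher and 56.4% lower, 59.8% in all. The median log2 fold change was 0.83 for the 40 genes and -0.10 for all tested genes. With scaling by total counts these medians were -0.19 and -1.11, so their distance was 0.92 on either scale. When mutant replicate 2 was left out, 18 genes rose and 2 fell; leaving out mutant replicate 3, or replicate 3 of wild type, gave 18 rises and 3 falls each. The mutant libraries lay above each wild-type library for 31 of the 40 genes and below for 7, where 24.4% and 28.2% of all tested genes did so, 52.6% in all. With scaling by total counts 5 genes lay above and 17 below, where 4.86% and 61.9% of all tested genes did so, 66.7% in all. With length trends removed, 27 of the 40 rose and 3 fell, beside 19.4% and 18.2% of all tested genes (37.6% in all).

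Abundance moved with these calls. Among all 1377 tested genes with a mean of at least 100 CPM, 57.4% were called higher and 2.69% lower, with a median log2 fold change of 0.91. Of the 40 translation factor genes, 30 lay in that range: 24 rose, 1 fell and their median was 0.97. Among genes under 100 CPM, 12.8% of all tested genes were called higher and 22.8% lower, and of the 10 translation factor genes there 2 rose and 3 fell. The mean was taken over all 6 libraries, so a change in the mutant can itself move a gene across the limit. For example, eif-4A3 averaged 73.9 CPM in wild type and 202 CPM in mutants. The range is thus not independent of the calls counted in it. The limit of 100 CPM was chosen after the values were seen, and the part of abundance in the calls was not tested. As a share of each library, the 40 genes took 3.46%, 3.45% and 3.18% of all counts in mutant replicates 1 to 3, against 2.29%, 3.06% and 2.41% in wild type. These shares do not involve TMM, and those of the mutant were the higher. Most of them came from eEF1 (2.13% to 2.32% in mutants, 1.23% to 1.85% in wild type) and eef-2 (0.598% to 0.701% and 0.442% to 0.583%). Apart from these, only eIF5A had a higher share in every mutant library. The shares of eIF2, eIF4E, eif-4A3 and eif-6 overlapped. Those of eIF3 (0.152% to 0.177% in mutants, 0.190% to 0.222% in wild type) and all remaining roles were lower in every mutant library.

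**Figure D1:**
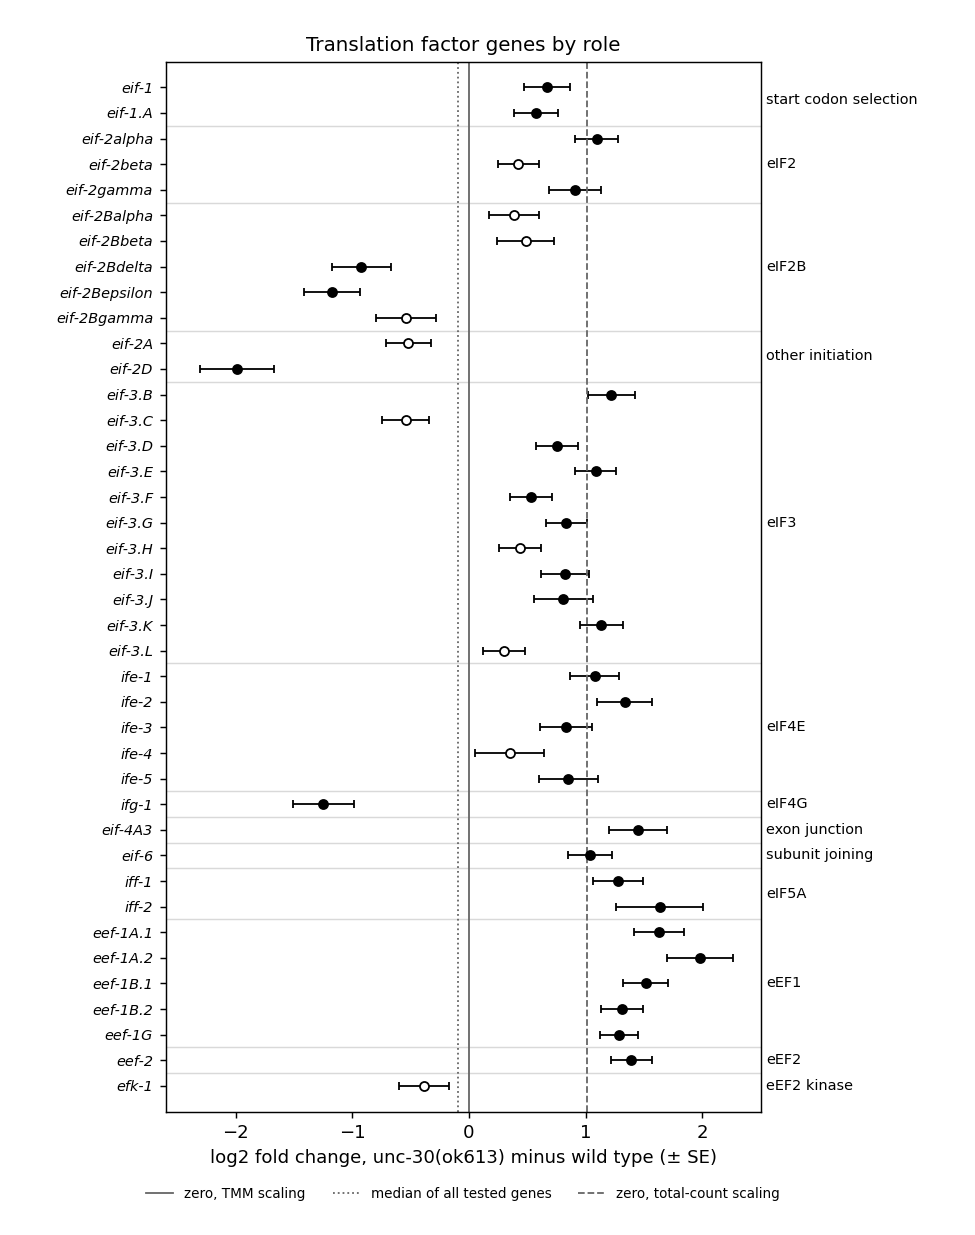
Log2 fold changes (unc-30(ok613) minus wild type, x axis) of the 40 genes, grouped by role, with standard errors; filled points passed the edgeR test (adjusted p under 0.05, n = 3 libraries per group) and open points did not. The dotted line is the median of all tested genes (-0.10) and the dashed line is where zero would lie with scaling by total counts (1.01), so points between the solid and the dashed line change direction with the scaling; the 5 eEF1 genes and eef-2 lie right of both.

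The elongation factor genes rose on the TMM scale without exception: the 5 eEF1 genes and eef-2 all passed. On total counts eef-1A.1, eef-1A.2, eef-1B.1 and eef-2 still rose, while eef-1B.2 (0.30) and eef-1G (0.28) had positive log2 fold changes that did not pass. All had a mean of at least 100 CPM, where 57.4% of all tested genes were called higher with TMM and 15.4% on total counts. eef-1A.1 (WBGene00001168, chromosome III, 6970026 to 6971712, minus strand), which encodes the GTPase that delivers aminoacyl-tRNA, had 21285, 23870.5 and 23869 CPM in mutant replicates 1 to 3, against 5667, 9648 and 7009 CPM in wild type. Every mutant library lay far above every wild-type one, and wild type replicate 2 was the highest of its group. The log2 fold change was 1.63 ± 0.21 (SE), or 3.09-fold, with adjusted p = 0.00251. Its paralogue eef-1A.2 (chromosome X, 7823654 to 7825769, plus strand) had 1996, 2748 and 2692 CPM in the mutant, against 444, 885 and 559 CPM in wild type. Here mutant replicate 1 was the lowest mutant library, still above every wild-type one, and the log2 fold change of 1.98 ± 0.28 was the highest of the 40 genes (adjusted p = 0.00298). The coding sequences of these paralogues are close to each other and no source used here gives the treatment of ambiguous reads, which may have been split between the pair.

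The nucleotide exchange subunits, which recharge eEF1A with GTP, moved alike in direction. eef-1B.1 had 1977, 2289 and 2006 CPM in the mutant, against 608, 830.0 and 756 CPM in wild type, a log2 fold change of 1.51 ± 0.19 (adjusted p = 0.00237). eef-1B.2 averaged 949 ± 75.1 CPM in mutants and 382 ± 40.8 CPM in wild type (± SD, 3 libraries each), and eef-1G, the structural gamma subunit, had 3146 to 3462 CPM in mutant libraries and 1216 to 1440.1 CPM in wild-type ones. Within a library, eef-1A.1 held 69.0% to 70.9% of the summed eEF1 counts per kilobase of exon in mutants and 65.3% to 70.7% in wild type, so these ranges overlapped. eef-1B.2 held 2.01% to 2.26% in mutants and 2.36% to 3.05% in wild type, with no overlap.

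eef-2 (chromosome I, 9163531 to 9166952, plus strand), the translocase gene, had 9236, 8945 and 9144 CPM in the mutant, against 2972, 4156 and 3272 CPM in wild type. The mutant libraries were close together and far above wild type, with a log2 fold change of 1.39 ± 0.18 (adjusted p = 0.00238). With scaling by total counts it was 0.38 and near the threshold (adjusted p = 0.0486). efk-1, which encodes the kinase that phosphorylates and inhibits eEF2, did not pass the test: 40.5, 31.2 and 33.4 CPM in the mutant, against 51.2, 41.1 and 45.2 CPM in wild type. Its log2 fold change was -0.39 ± 0.21 (adjusted p = 0.179), 0.02 with length trends removed, and -1.40 with scaling by total counts, where it was called lower (adjusted p = 0.00247). Per kilobase of exon, counts of eef-2 exceeded those of efk-1 by 221, 277 and 265 times in mutant replicates 1 to 3, against 56.1, 97.8 and 69.9 times in wild type. This within-library ratio needs no scaling factor and was higher in every mutant library. It sets an abundant gene against a scarce one. With TMM, the median log2 fold change was 0.91 for all tested genes with a mean of at least 100 CPM and -0.21 for those under it. No such ratios were computed over all genes, so whether the shift is particular to this pair was not tested.

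Both eIF5A genes, whose product helps ribosomes past difficult peptide bonds and carries the modified residue hypusine, rose with TMM but not with scaling by total counts (log2 fold changes 0.27 and 0.61). The germline-enriched iff-1 (chromosome III, 9745862 to 9747193, minus strand) had 579.7, 503 and 424 CPM in the mutant, against 226, 171 and 224 CPM in wild type, a log2 fold change of 1.28 ± 0.21 (adjusted p = 0.00403). A gene on the opposite strand, T05G5.17, covers 20.5% of its exonic bases. The somatic iff-2 had 612, 996 and 1035 CPM in the mutant, against 157, 419 and 275 CPM in wild type (1.63 ± 0.37, adjusted p = 0.0117). Replicate 1 was the highest library of each group for iff-1 and the lowest for iff-2. iff-1 held 48.7%, 33.6% and 29.1% of the summed eIF5A counts in mutant replicates 1 to 3, against 59.0%, 29.0% and 44.9% in wild type. The groups overlapped, and the mean difference was -7.17 percentage points (37.1 ± 10.3% and 44.3 ± 15.03%, ± SD, 3 libraries each; two-sided exact permutation p = 0.7, 0.7 adjusted over both families, where 0.1 is the smallest p this design allows). The difference rested on wild type replicate 1, without which it was 0.185 percentage points; without wild type replicate 2 it was -14.8 and without mutant replicate 1 it was -13.0.

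Among the 5 eIF4E genes, which encode cap-binding proteins, 4 rose and ife-4 did not pass. On total counts none passed in either direction, ife-3, ife-4 and ife-5 turned negative (-0.17, -0.67 and -0.16), and ife-1 and ife-2 stayed positive (0.07 and 0.31). Beside this, 17.1% of all tested genes were called higher with TMM and 3.43% on total counts. ife-1 (chromosome III, 13343417 to 13344618, plus strand), an isoform of germ granules needed for sperm formation, had 436, 475 and 411 CPM in the mutant, against 165, 243 and 218 CPM in wild type. Its log2 fold change was 1.08 ± 0.21 (adjusted p = 0.00632), and dro-1 on the same strand shares 24.7% of its exonic bases. ife-3, the isoform closest to the general eIF4E, had 378, 272 and 247 CPM in the mutant, against 186, 162 and 156 CPM in wild type (0.83 ± 0.22, adjusted p = 0.0198). Mutant replicate 1 stood highest for it, and the call failed without wild type replicate 3 (adjusted p = 0.0729). ife-5 was scarce in both strains, at 17.8, 22.4 and 18.8 CPM in mutants and 8.74, 12.7 and 11.2 CPM in wild type (0.85 ± 0.25, adjusted p = 0.0301), and the call failed without any of 4 single libraries (replicates 2 and 3 of the mutant, 1 and 3 of wild type).

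Of the somatic eIF4E genes, ife-2 passed the test and ife-4 did not, and on total counts neither passed; the difference between their changes was not tested. ife-2 had 70.6, 111 and 92.7 CPM in the mutant, against 33.6, 41.5 and 33.4 CPM in wild type, a log2 fold change of 1.34 ± 0.24 (adjusted p = 0.00467). ife-4 had only 5.85, 8.77 and 7.35 CPM in mutants and 5.12, 7.12 and 5.01 CPM in wild type, with overlapping groups (0.35 ± 0.30, adjusted p = 0.371). Of the 4 germline-enriched isoforms of both families 4 rose (median log2 fold change 0.96), and of the 3 somatic ones 2 rose (median 1.34); with scaling by total counts none of the 7 passed, and the medians were -0.04 and 0.31. Without wild type replicate 3 only 2 of the germline-enriched isoforms passed. The median of all tested genes was -0.10 with TMM and -1.11 on total counts. With TMM, 17.1% of all tested genes were called higher. At a mean of at least 100 CPM, where ife-1, ife-3, iff-1 and iff-2 lie, 57.4% were.

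The balance between germline and somatic eIF4E isoforms within a library overlapped between the strains. The germline-enriched isoforms held 91.6%, 86.6% and 87.1% of eIF4E counts in mutant replicates 1 to 3, against 90.3%, 89.6% and 91.0% in wild type. Those ranges overlapped (88.4 ± 2.76% and 90.3 ± 0.701%, ± SD, 3 libraries each; two-sided exact permutation p = 0.4, 0.7 adjusted over both families). The difference of -1.84 percentage points was -3.43 without mutant replicate 1, and -0.915 and -1.19 without mutant replicate 2 and 3. Per kilobase of exon, ife-1 made up 49.3% to 53.6% of the family in mutants and 42.6% to 52.9% in wild type, and ife-3 made up 27.3% to 38.1% in mutants and 31.3% to 42.8% in wild type, so both overlapped.

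Marker lists for germline and soma give the levels beside these isoforms, and they too depend on the scaling. Over all tested genes, 17.1% were called higher and 20.9% lower with TMM, and 3.43% and 56.4% on total counts. All mutant libraries lay below all wild-type ones for 28.2% of tested genes with TMM and 61.9% on total counts. Of 12 germline markers 0 rose and 2 fell (him-3 and syp-1) with TMM, and their summed level was 2337 to 3682 CPM in mutants and 2399 to 3098 CPM in wild type. On total counts 10 of the 12 fell, and the list took 0.156% to 0.280% of all counts in mutants and 0.330% to 0.461% in wild type, without overlap. The TMM count of falls was 4 without mutant replicate 1 and 1 when any of mutant replicates 2 and 3 or wild type replicates 1 and 3 was left out. Of 10 sperm markers 0 rose and 5 fell with TMM (3 without replicate 3 of either strain), with sums of 212 to 251 CPM in mutants and 221 to 377 CPM in wild type. All 10 fell on total counts, with 0.0148% to 0.0191% of counts in mutants and 0.0328% to 0.0518% in wild type, again without overlap.

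None of 12 oocyte markers passed on either scale (median log2 fold changes -0.24 with TMM and -1.22 on total counts). This count of 0 hung on 1 library and on whether replicate number entered the model. Their sum was 5930 CPM in mutant replicate 1 against 1167 and 1245 CPM in replicates 2 and 3, and 4722 CPM in wild type replicate 1 against 1826 and 1722 CPM in the other two. Without mutant replicate 1, 5 of the 12 fell and the median was -1.46. Without wild type replicate 1, 0 passed and the median was 0.52. With replicate number as a further term of the model, 4 of the 12 were called lower, beside 25.6% of all tested genes.

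Body wall muscle markers all rose with TMM (7 of 7, sums of 18379 to 26901 CPM in mutants and 6508 to 11542 CPM in wild type), while on total counts none passed and the shares of all counts overlapped. Each of them had a mean of at least 100 CPM, a range where 57.4% of all tested genes were called higher with TMM. Of the other somatic lists, 2 of 6 intestine, 2 of 7 epidermis and 3 of 7 neuron markers rose and 1 neuron marker fell. On total counts 0, 0 and 2 rose and 2, 1 and 4 fell. The epidermis count was 0 when any of mutant replicates 2 and 3 or wild type replicates 1 and 3 was left out, and 5 without wild type replicate 2. The intestine count was 1 without mutant replicate 2, mutant replicate 3 or replicate 3 of wild type, and the neuron fall was lost without any single library. The 3 sums were higher in every mutant library with TMM (epidermis 4534 to 8017 CPM in mutants and 1480 to 2918 CPM in wild type), but as shares of all counts those of intestine and epidermis overlapped and the neuron share alone stayed higher. The neuron sum came largely from snb-1, egl-3 and sbt-1, the 3 neuron markers that rose with TMM. In mutant replicate 1 they had 184, 177 and 130 CPM of a sum of 528 CPM. Of the other neuron markers 1 fell and 3 did not pass. In whole animals a change in the number of cells of a type and a change in RNA per cell cannot be told apart, and the part of these markers in the isoform results was not tested.

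**Figure D2:**
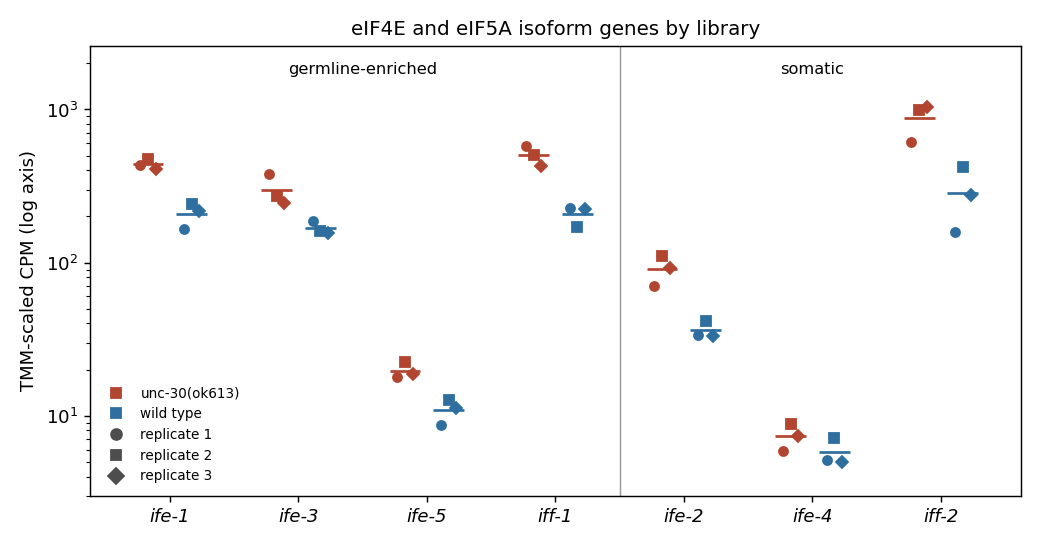
TMM-scaled CPM (log axis) of the eIF4E and eIF5A isoform genes in each library, with unc-30(ok613) left of wild type, symbols by replicate number and bars at the group means. All mutant points lie above all wild-type points for each gene except ife-4; with scaling by total counts none of these 7 genes passed the test.

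ifg-1 (chromosome II, 8217222 to 8222396, plus strand), the single eIF4G gene, which links the cap-binding protein to eIF3, fell. It had 176, 109 and 143 CPM in the mutant, against 439, 276 and 303 CPM in wild type, and no library overlapped. The log2 fold change was -1.25 ± 0.26, 2.38-fold lower (adjusted p = 0.00817), and -2.26 on total counts. ifg-1 is also the longest of the 40 genes, at 4669 exonic bases, and with length trends removed the log2 fold change was -0.63 (adjusted p = 0.0409). The call failed without mutant replicate 2 (adjusted p = 0.0530). Per kilobase of exon, the ratio of ifg-1 to the mean eIF4E gene was 0.212, 0.132 and 0.198 in the mutant, against 1.21, 0.641 and 0.776 in wild type. The eIF4E genes have only 835 to 1118 exonic bases. Dividing by length does not remove a length trend that differs between libraries, and no ratio was computed with such trends removed.

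The helicase partner of eIF4G, eIF4A, is encoded by inf-1, which the naming rule does not reach. inf-1 rose to 1343 ± 42.7 CPM in the mutant, against 498 ± 41.4 CPM in wild type (± SD, 3 libraries each; log2 fold change 1.43 ± 0.17, adjusted p = 0.00229), and also with scaling by total counts (0.41, adjusted p = 0.0484). eif-4A3, a related helicase that is a core part of the exon junction complex rather than an initiation factor, had 166, 229 and 211 CPM in the mutant, against 59.6, 96.8 and 65.3 CPM in wild type (1.45 ± 0.25, adjusted p = 0.00438). It did not pass on total counts (0.43, adjusted p = 0.146), and 11.4% of its exonic bases are shared with other genes of the same strand. eif-6, which keeps ribosomal subunits apart, averaged 182 ± 10.00 CPM in mutants and 88.4 ± 10.4 CPM in wild type (1.04 ± 0.19, adjusted p = 0.00504), and its log2 fold change was 0.03 with scaling by total counts.

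With TMM, eIF2 genes were called higher or not at all, and eIF2B genes lower or not at all. The eIF2 genes all had a mean of at least 100 CPM. In that range 57.4% of all tested genes were called higher and 2.69% lower with TMM, and 15.4% and 22.2% on total counts. Of the 3 eIF2 subunits, eif-2alpha and eif-2gamma rose with TMM and eif-2beta did not pass, while with scaling by total counts eif-2beta fell (-0.59) and the others did not pass (0.08 and -0.11). eif-2alpha, whose product is the target of the stress kinases, had 397, 485 and 419 CPM in the mutant, against 196, 207 and 206 CPM in wild type (1.09 ± 0.18, adjusted p = 0.00398). eif-2gamma, the GTP-binding subunit, averaged 341 ± 25.2 CPM in mutants and 182 ± 44.8 CPM in wild type (0.91 ± 0.22, adjusted p = 0.0150), and the call failed without replicate 2 or 3 of the mutant or replicate 3 of wild type. Within a library eif-2alpha held 38.2% to 40.4% of the summed eIF2 counts per kilobase in mutants and 30.4% to 34.3% in wild type.

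Of the 5 eIF2B subunits, 0 rose and 2 fell, and on total counts 4 fell. All had a mean under 100 CPM, where 22.8% of all tested genes were called lower with TMM and 59.9% on total counts. eif-2Bepsilon (chromosome II, 8661869 to 8664721, plus strand), the catalytic subunit, had 16.5, 15.1 and 16.9 CPM in the mutant, against 44.1, 29.7 and 35.6 CPM in wild type. The mutant libraries were tightly grouped below all wild-type ones, with a log2 fold change of -1.17 ± 0.24 (adjusted p = 0.00730), or 2.25-fold lower. It stayed called with length trends removed (-0.84, adjusted p = 0.0201). eif-2Bdelta had 26.0, 19.1 and 22.8 CPM in the mutant, against 53.7, 34.1 and 40.9 CPM in wild type (-0.92 ± 0.25, adjusted p = 0.0225). The call failed with length trends removed (-0.62, adjusted p = 0.0646) and without any of 4 single libraries (replicates 2 and 3 of the mutant, 1 and 3 of wild type). The remaining subunits did not pass, with log2 fold changes of 0.39 for eif-2Balpha, 0.49 for eif-2Bbeta and -0.54 for eif-2Bgamma.

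The shares of the subunits in eIF2B transcripts within a library did not overlap between the strains for any subunit. These shares add up to a fixed total in each library, so they are not separate observations. In CPM, 52.6% of all tested genes did not overlap with TMM and 66.7% on total counts, and no such figure was computed for shares. eif-2Bepsilon held 8.57%, 7.60% and 9.02% of the summed counts per kilobase in mutant replicates 1 to 3, against 16.8%, 16.7% and 16.8% in wild type. eif-2Balpha held 30.8%, 34.8% and 34.7% in the mutant, against 20.7%, 24.5% and 23.6% in wild type. The genes with a higher share in the mutant, eif-2Balpha and eif-2Bbeta, have 1064 and 1167 exonic bases, and those with a lower share, eif-2Bgamma, eif-2Bdelta and eif-2Bepsilon, have 1320, 2161 and 2284. The part of length in this shift was not tested beyond the fit with length trends removed. The mean eIF2 gene exceeded the mean eIF2B gene per kilobase by 10.9, 12.3 and 11.97 times in the mutant, against 4.46, 7.78 and 6.01 times in wild type, without overlap. Here too abundant genes are set against scarce ones, and no such ratios were computed over all genes.

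**Figure D3:**
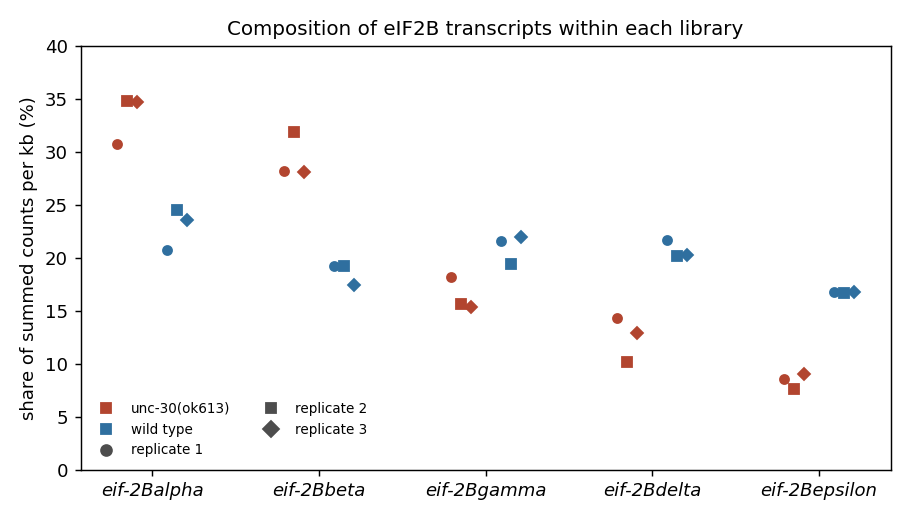
Share of each subunit gene in the summed eIF2B counts per kilobase of exon (%), in each library, with unc-30(ok613) left of wild type. The shares of eif-2Balpha and eif-2Bbeta are higher, and those of eif-2Bgamma, eif-2Bdelta and eif-2Bepsilon lower, in all 3 mutant libraries; these shares do not depend on the scaling.

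Of the 11 eIF3 genes, 8 rose and 3 did not pass. Scaling by total counts gave 0 rises and 4 falls (eif-3.C, eif-3.F, eif-3.H and eif-3.L). All of them had a mean of at least 100 CPM. In that range 57.4% of all tested genes were called higher and 2.69% lower with TMM, and 15.4% and 22.2% on total counts. eif-3.B, a core scaffold subunit, averaged 495 ± 17.8 CPM in mutants and 213 ± 38.8 CPM in wild type (± SD, 3 libraries each), the highest eIF3 log2 fold change at 1.22 ± 0.20 (adjusted p = 0.00384). Of the others that rose, eif-3.K (1.14) and eif-3.E (1.09) followed, and eif-3.F was at the low end (0.53, adjusted p = 0.0486), called lower with scaling by total counts (-0.49). eif-3.C, another core subunit and the longest eIF3 gene among the 40 (3011 exonic bases), had 216, 173 and 154 CPM in the mutant, against 286, 269 and 236 CPM in wild type. It did not pass (-0.54 ± 0.20, adjusted p = 0.0643) and was at -0.07 with length trends removed. eif-3.C held 3.35% to 4.78% of the summed eIF3 counts per kilobase in mutants and 8.91% to 10.8% in wild type, whereas eif-3.B held 11.4% to 13.2% in mutants and 8.05% to 9.95% in wild type. Of the calls, that of eif-3.F failed without any single library except mutant replicate 1, that of eif-3.D without replicate 2 or 3 of the mutant, that of eif-3.I without those or replicate 3 of wild type, and that of eif-3.J without those or replicate 1 of wild type. The other genes that did not pass, eif-3.H and eif-3.L, had log2 fold changes of 0.44 and 0.30.

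The naming rule also leaves out 2 genes of eIF3, added after the other values were seen. egl-45, the eIF3a gene, averaged 299 ± 62.7 CPM in mutants and 289 ± 27.7 CPM in wild type and did not pass (0.05 ± 0.21, adjusted p = 0.871). This gene, with 3588 exonic bases, was called higher with length trends removed (0.59, adjusted p = 0.0283) and lower on total counts (-0.96, adjusted p = 0.00810). cif-1, the eIF3m gene, rose to 250.2 ± 17.6 CPM in the mutant, against 132 ± 1.30 CPM in wild type (0.92 ± 0.18, adjusted p = 0.00583), but had -0.10 with scaling by total counts. Per kilobase, the mean eEF1 gene exceeded the mean eIF3 gene by 29.5, 30.7 and 31.5 times in the mutant, against 14.1, 19.6 and 17.3 times in wild type, and eef-2 exceeded it by 24.2, 21.9 and 23.5 times, against 13.3, 16.4 and 14.6 times. The eEF1 mean rested largely on eef-1A.1, which held 69.0% to 70.9% of its sum in mutants and 65.3% to 70.7% in wild type. These ratios set genes of unlike abundance against each other, and no such ratios were computed over all genes.

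The genes of start codon selection rose with TMM and turned negative with scaling by total counts: eif-1 by 0.67 ± 0.20 (adjusted p = 0.0288; -0.35 with total counts) and eif-1.A by 0.58 ± 0.19 (adjusted p = 0.0404; -0.44 with total counts). Both calls were lost without any single library except mutant replicate 1. Both genes had a mean of at least 100 CPM, where 57.4% of all tested genes were called higher with TMM and 15.4% on total counts. With length trends removed, eif-1 did not pass (0.33, adjusted p = 0.160) and eif-1.A did (0.53, adjusted p = 0.0441). The largest fall of the 40 was that of eif-2D (chromosome II, 5691721 to 5693939, plus strand), whose product can bring tRNA to the ribosome without GTP. It had 8.75, 5.90 and 5.53 CPM in the mutant, against 32.3, 18.8 and 29.2 CPM in wild type, from 73 to 136 counts per mutant library. The log2 fold change was -1.99 ± 0.32, 3.98-fold lower (adjusted p = 0.00349), and it stayed called with length trends removed (-1.78) and on total counts (-2.995). eif-2A, an alternative initiator tRNA carrier, did not pass (-0.52 ± 0.19, adjusted p = 0.0620) and fell with scaling by total counts (-1.53).

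All 4 genes that fell were among the longer ones, while both length classes had a median log2 fold change of 0.83. The exonic lengths ran from 582 to 4669 bases with a median of 1389.5. Of the 20 longer genes 11 rose and 4 fell, and of the 20 shorter genes 15 rose and 0 fell; scaling by total counts gave 3 rises and 9 falls among the longer and 1 rise and 4 falls among the shorter. With TMM, among all tested genes longer than that median 11.6% were called higher and 26.8% lower, and among those at or under it 22.3% higher and 15.3% lower. On total counts these shares were 1.24% higher and 66.5% lower among the longer, and 5.54% higher and 46.6% lower among the others. The median log2 fold changes were 0.83 for the longer and 0.83 for the shorter translation factor genes, against -0.31 and 0.13 for all tested genes of those lengths. With length trends removed, 13 of the longer genes rose and 3 fell (median 1.02), and 14 of the shorter rose and 0 fell (median 0.79). Leaving out a library lowered the 15 rises among shorter genes to 9 (mutant replicate 2 or 3), 8 (wild type replicate 3) and 10 (wild type replicate 1), and the 4 falls to 2 (mutant replicate 2).

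Across the 40 genes, log2 fold change and log2 length had Pearson's r = -0.38 and Spearman's rho = -0.24, and across 14496 tested genes with a length r = -0.20 and rho = -0.22. These are correlations across genes that share the same 6 libraries, and genes are not independent replicates. Long genes stood at both ends: eef-2 (2800 bases) and eif-4A3 (2840 bases) rose while ifg-1 fell.

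**Figure D4:**
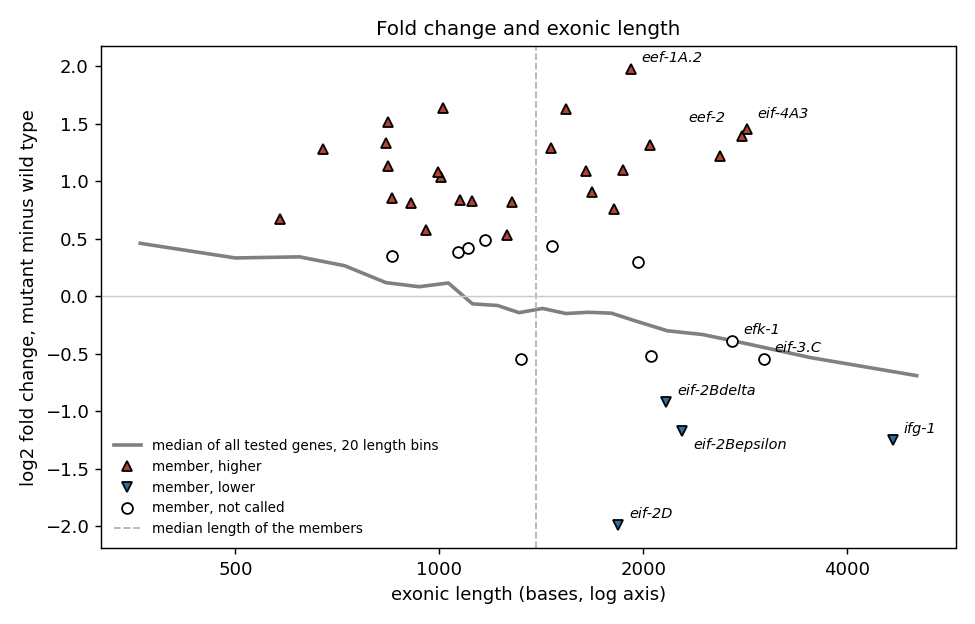
Log2 fold change (mutant minus wild type, TMM scaling) of the 40 genes against exonic length in bases (log axis), with triangles for genes that passed the edgeR test and circles for those that did not; the grey line joins the medians of all tested genes in 20 bins of length. The line falls with length, the 4 genes called lower all lie right of the dashed median length of 1389.5 bases, and 11 genes called higher lie there too; with scaling by total counts all values lie about 1.01 lower.

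Other genes of translation and its control were taken from a list. Of 30 listed genes 4 had no match by symbol. With TMM, 8 of the 26 tested rose, 6 fell and 12 did not pass (median log2 fold change 0.06). Among all tested genes 17.1% were called higher and 20.9% lower, so the share of falls was near that of all genes. Scaling by total counts gave 2 rises and 18 falls, beside 3.43% called higher and 56.4% called lower among all tested genes. The TMM counts were 5 and 3 without mutant replicate 2, 4 and 2 without mutant replicate 3, and 5 and 5 without either wild type replicate 1 or 3. The largest rises were those of pab-1, a poly(A)-binding protein gene (1.56 ± 0.22, adjusted p = 0.00281), inf-1, and dohh-1, which encodes an enzyme of hypusine formation on eIF5A (0.93 ± 0.20, adjusted p = 0.00944). pab-1 and inf-1 also rose with scaling by total counts, while dohh-1 was at -0.07. pab-1 averaged 5173 ± 293 CPM in mutants and 1749.7 ± 458 CPM in wild type (± SD, 3 libraries each).

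The 3 largest falls were those of daf-15, abcf-1 and let-363. daf-15, the Raptor gene of the TOR complex, had 28.9, 8.71 and 12.3 CPM in the mutant, against 94.2, 51.1 and 53.6 CPM in wild type (-1.99 ± 0.48, adjusted p = 0.0148). It fell by more without mutant replicate 1 (-2.59), and the call failed without mutant replicate 3 (adjusted p = 0.0689). abcf-1, an ABC protein of ribosome function, averaged 31.6 ± 1.12 CPM in mutants and 108 ± 20.2 CPM in wild type (-1.77 ± 0.22, adjusted p = 0.00232). let-363, the TOR kinase gene, averaged 20.0 ± 8.73 CPM in mutants and 67.8 ± 20.5 CPM in wild type (-1.76 ± 0.37, adjusted p = 0.00807). These 3 falls were also called on total counts and with length trends removed, where the log2 fold changes were -1.38 for daf-15, -1.50 for abcf-1 and -1.06 for let-363, the longest of the 3 genes at 8560 exonic bases. iffb-1, the eIF5B gene for subunit joining, missed the threshold (-0.30 ± 0.21, adjusted p = 0.272), and was at 0.27 with length trends removed and -1.32 with scaling by total counts.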

How the data were processed

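Each deposited file gives, for 1 library, unnormalized read counts by WormBase gene identifier; HTSeq and DESeq2 are named in the submitters' processing notes, without versions. No source used here gives the aligner, build, annotation or strand setting, and overlapping and antisense genes cannot be separated with certainty: 16 of the 40 genes share exonic bases with another gene, 3 of them over 10%. Symbols, positions and lengths come from Ensembl release 115 of WBcel235, matched by identifier (46863 of 46911 found). Length is the union of exons.

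Differential expression was tested with edgeR 4.0.16 in R 4.3.3 (TMM factors, default expression filter, robust quasi-likelihood F-test, group as the only term, Benjamini-Hochberg adjustment over all 14506 tested genes, threshold 0.05). An adjusted p is from edgeR where no other test is stated. Standard errors are the log2 fold change divided by the square root of F. Removing length trends used lowess curves of log2 CPM on log2 exonic length per library as offsets (span 0.3; 99.9% of tested genes had a length). No 2 libraries of a group looked like a repeat deposit: the chi-square of their counts was 31.9 to 255 times its degrees of freedom. Member counts ran from 73 to 408286 per library, with no count of 0. The fits were tested on simulated data.

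The 40 genes, the isoform classes, the lists and the tests were chosen with earlier results of these data known. Values in every library were given, by rule, for the eIF4E, eIF5A and eEF1A genes, ifg-1, efk-1 and the 5 largest rises and falls among those called (only 4 fell); of the other translation genes the 3 largest rises and falls, inf-1 and iffb-1 were named. A list is described by its counts and median, with no set test. Alternatives were DESeq2 1.42.0 and its size factors, scaling by total counts, no expression filter, length trends removed, a replicate block, leaving out each library, coding length, and shares per kilobase.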

Additional observations from a re-analysis of the deposited data

How the results depend on the processing

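Scaling was the choice that mattered most. With scaling by total counts, 4 of the 40 genes rose and 13 fell (median -0.19); over all tested genes 498 rose and 8175 fell (median -1.11). Germline-enriched isoforms then had 0 rises and a median of -0.045, somatic isoforms 0 rises and 0.31, longer genes 3 rises, 9 falls and -0.18, shorter genes 1 rise, 4 falls and -0.19, and the other translation genes 2 rises, 18 falls and -0.96. Among the 40 genes and dohh-1, log2 fold changes that turned negative with it were eif-1 -0.35, eif-1.A -0.44, eif-2Balpha -0.64, eif-2Bbeta -0.54, eif-2beta -0.59, eif-2gamma -0.11, eif-3.D -0.25, eif-3.F -0.49, eif-3.G -0.18, eif-3.H -0.59, eif-3.I -0.19, eif-3.J -0.20, eif-3.L -0.72, ife-3 -0.17, ife-4 -0.67, ife-5 -0.16 and dohh-1 -0.072; those of egl-45 (-0.96), cif-1 (-0.10), aak-2, abce-1, abcf-2, dhps-1, drr-2, erfa-3, gcn-1, pab-2, tsfm-1 and tufm-1 did so too. With length trends removed, efk-1 was at 0.020 and iffb-1 at 0.27, abcf-3, gcn-2, gfm-1 and rsks-1 also turned positive, the medians were 1.02 for longer genes, 0.32 for other translation genes and 0.019 for all tested genes, and eif-1, eif-2Bdelta and eif-3.J lost their calls while eif-2beta, eif-3.H and eif-3.L were called higher. Split by coding length, the longer genes had a median of 0.60. The median of the 40 genes was 0.89 with DESeq2 size factors, and that of all tested genes was -0.20 with no expression filter and 0.025 with DESeq2's test. The cause was not tested for any of these shifts, apart from the scaling, which by construction moves all genes together.

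Leaving out 1 library at a time gave 18 to 27 rises and 2 to 4 falls among the 40 genes (median 0.73 to 0.93), 17 of the 26 higher calls being kept throughout. Over all tested genes it gave 1359 to 2897 rises and 1424 to 3257 falls (median -0.12 to -0.05), with 1402 and 1424 without mutant replicate 2, 1359 and 1432 without mutant replicate 3, and 1584 and 1882 without wild type replicate 3. It gave 2 to 4 rises (median 0.92 to 1.10) for germline-enriched isoforms and 2 rises (median 1.24 to 1.56) for somatic ones. It gave 9 to 12 rises and 2 to 4 falls (median 0.75 to 0.97) for longer genes, 8 to 15 rises (median 0.73 to 0.93) for shorter ones, and 4 to 8 rises and 2 to 6 falls (median 0.02 to 0.15) for the other translation genes. The difference in germline share was -3.43 to -0.915 percentage points for eIF4E and -14.8 to 0.185 for eIF5A.

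The labels do not say that replicate numbers mark pairs, and the counts left a partial pairing open. Deviations of same-numbered libraries correlated at 0.45, 0.42 and -0.07, and those of differently numbered ones at -0.50 to 0.31. Replicates 1 and 2 correlated best with their own number, and mutant replicate 3 did not. With the replicate block, 26 of the 40 genes were called higher and 6 lower, eif-2A and eif-3.C being the added ones, and over all tested genes 3230 were called higher and 3713 lower (22.3% and 25.6%). Of 12 germline markers the block fit called 2 higher and 4 lower, and of 10 sperm markers 0 higher and 6 lower. It called 4 of 12 oocyte markers lower, and 5 of 7 epidermis and 3 of 6 intestine markers higher. The counts for body wall muscle and neuron markers were unchanged. The lowest count of the 40 genes in any library was 73, for eif-2D.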
